A study of Mus musculus with 26 samples.

Results

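The 10 genes described here form the core of the mammalian circadian clock and its output: the period genes Per1, Per2 and Per3, the cryptochromes Cry1 and Cry2, the nuclear receptors Nr1d1 and Nr1d2, the transcription factors Dbp and Tef, and Clock itself. They were taken by mouse symbol from Ensembl identifiers, and all 10 were found among the 55416 genes counted. The series sequenced polyadenylated RNA from C57BL/6 mice in which B16F10 cells, a mouse melanoma line, had been injected into a vein and had formed lung metastases. Mice received propranolol, which blocks β-adrenoceptors, or were left untreated, and both groups carried the tumour cells. Whole lung gave 5 propranolol and 5 untreated libraries, monocytes sorted by flow cytometry from lung gave 4 and 4, and CD4 T cells isolated from lung with magnetic beads gave 4 and 4. The labels give neither the dose, the route nor the length of treatment, nor the age of the mice or the hour at which tissue was taken. Whether the replicates are separate mice is not stated either, so each p-value measures the spread between the libraries at hand, which may be technical.

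In the clock of mammalian cells, CLOCK and its partner BMAL1 bind E-box sequences and switch on the Per, Cry, Nr1d1, Nr1d2, Dbp and Tef genes. PER and CRY proteins then return to the nucleus and repress CLOCK and BMAL1, while the NR1D1 and NR1D2 receptors (REV-ERBα and REV-ERBβ) repress Bmal1 and Cry1 through ROR elements. DBP and TEF bind D-boxes, and Per1 is also an immediate target of cAMP and glucocorticoid signals. In lung and in leukocytes most of these transcripts oscillate over the day, whereas Clock varies little.

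Some of these elements can be read in the promoters of the members. RefSeq (GRCm38.p6) lists 13 windows for 9 of the 10 members, with Per2 not among them, and 250 bases before each start were searched on both strands. The E-box CACGTG was found in 4 of the 13 windows (1 each of Per1 and Cry1, 2 of Tef), against 6.02% of all 32851 windows. The D-box TTANGTAA was found in 1 of the 13 (Per3, at 2 places), against 2.06% of all windows, and TGACGT, the core of the cAMP response element, in 1 (Per1), against 6.47%. The ROR element TAGGTCA was in none of the 13, against 2.23% of all. The windows of Cry2, Nr1d1, Nr1d2, Dbp and Clock held none of the 4 motifs. The 4 windows shown, of Per1, Per3 and Cry1, were picked because each holds a match, all 5′ to 3′ on the strand of the gene, with the matches in capitals. The start of Per1 upstream (chr11:69098699-69098948, plus strand) holds an E-box and its second start (chr11:69099902-69100151, plus strand) the cAMP response core. Per3 (chr4:151044666-151044915, minus strand) holds the D-boxes and Cry1 (chr10:85185055-85185304, minus strand) an E-box. A match describes the letters and does not show binding.
Per1, upstream start: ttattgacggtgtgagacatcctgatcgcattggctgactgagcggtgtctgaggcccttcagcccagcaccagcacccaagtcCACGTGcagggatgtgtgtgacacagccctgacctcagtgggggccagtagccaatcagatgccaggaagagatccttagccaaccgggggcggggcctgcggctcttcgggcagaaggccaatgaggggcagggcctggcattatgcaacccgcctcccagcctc
Per1, second start: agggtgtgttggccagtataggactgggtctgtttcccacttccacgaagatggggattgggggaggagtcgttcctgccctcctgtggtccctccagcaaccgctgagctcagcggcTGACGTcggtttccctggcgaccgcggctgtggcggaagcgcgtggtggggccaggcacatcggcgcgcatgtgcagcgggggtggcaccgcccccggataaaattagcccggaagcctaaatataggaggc
Per3: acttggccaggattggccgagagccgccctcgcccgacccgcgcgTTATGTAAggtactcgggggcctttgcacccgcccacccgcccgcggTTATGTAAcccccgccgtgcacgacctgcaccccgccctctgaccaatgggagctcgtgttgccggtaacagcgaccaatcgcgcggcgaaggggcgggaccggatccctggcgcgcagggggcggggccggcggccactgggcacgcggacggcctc
Cry1: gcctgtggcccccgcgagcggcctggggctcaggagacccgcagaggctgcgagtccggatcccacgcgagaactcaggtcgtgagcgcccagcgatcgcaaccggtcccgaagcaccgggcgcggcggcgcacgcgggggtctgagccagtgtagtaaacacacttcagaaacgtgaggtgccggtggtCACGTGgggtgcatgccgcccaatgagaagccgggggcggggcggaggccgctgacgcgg

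A library held 29650148 to 43447855 counts in propranolol lung and 33232082 to 47618634 in untreated lung. Totals ran from 36277687 to 46407803 against 36371431 to 48306925 in the monocyte libraries, and from 27742422 to 42484125 against 17625672 to 35600275 in the CD4 T cell libraries. Markers were read as CPM, counts rescaled so that all libraries have one total, without further scaling. In lung, 12 melanocyte genes summed to 1220 to 11700 CPM with propranolol and 17575 to 26640 CPM without, so the groups did not overlap in tumour RNA. The libraries labelled monocytes held Cd14, a monocyte receptor (median 651 CPM with propranolol and 668 CPM without), but also Cdh5 of endothelium (1260 and 1665 CPM), Sftpc of alveolar type 2 cells (2136 and 2306 CPM) and Tyrp1 of melanocytes (1368 and 1017 CPM). Their values are therefore given for the libraries as labelled, not for monocytes alone. In the CD4 T cell libraries 10 T cell genes summed to 4484 to 4846 CPM with propranolol and 3500 to 3553 CPM without, although Cd4 itself had medians of 455 and 644 CPM, and Cd8a of 11.3 and 4.52 CPM. The plasma cell gene Igha had medians of 4232 and 6679 CPM there. Tyrp1 and Sftpc were at 0 in every CD4 T cell library, but the 12 melanocyte genes summed to 8.53 to 11.1 CPM with propranolol and 19.5 to 21.3 CPM without, and the 9 alveolar type 2 genes to 91.4 to 104 and 181 to 186 CPM, most of it in untreated libraries from Abca3 (median 150.9 CPM). In bulk RNA, fewer cells of a type and less RNA per cell cannot be told apart.

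In untreated mice the members stood in a different order in each material. Per kilobase of exon, Nr1d1 had the highest level in whole lung (median 32.5 CPM per kilobase, range 16.5 to 37.2, n = 5), followed by Tef at 29.1 and Dbp at 18.6. Per1 led in the monocyte libraries at 46.5 (range 45.7 to 47.7, n = 4), ahead of Nr1d1 at 24.2. It led also in the CD4 T cell libraries at 18.9 (range 18.4 to 19.9, n = 4), ahead of Cry1 at 9.63, while Nr1d1 was down at 1.92. Per3 was the lowest member in all 3 materials, with medians of 3.54 in lung, 0.883 in the monocyte and 1.19 in the CD4 T cell libraries. Neighbours in the order overlapped in part: Nr1d1 and Tef did so in lung, and Per1 and Nr1d1 did not in the monocyte libraries.

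Set gene by gene against untreated lung, the output genes were low in both kinds of isolated cells. Of the 10 members, 2 were higher and 4 lower in untreated monocyte libraries than in untreated lung at an adjusted p under 0.05, where 31.9% of all genes tested were higher and 33.6% lower (65.4% in all). Per1 averaged 281 ± 11.4 CPM in the monocyte libraries and 82.7 ± 11.7 CPM in lung (SD, n = 4 and 5), a log2 difference of 1.76 ± 0.10 (SE, adjusted p = 9.85e-08). Cry1 was also higher there (log2 difference 0.91 ± 0.14). Dbp, an activator of D-box genes, averaged 9.90 ± 2.67 CPM in the monocyte libraries and 47.3 ± 8.46 CPM in lung, and its log2 difference was −2.25 ± 0.20 (adjusted p = 2.49e-06). Tef (−1.46), Per3 (−1.53) and Nr1d2 (−0.32) were lower as well, while Per2, Cry2, Nr1d1 and Clock did not pass the test. When libraries were scaled by total count, Clock passed at −0.12 (adjusted p = 0.0472), and genes split 4615 higher to 7834 lower (5816 to 6131 with the trimmed mean of M values, TMM).

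The CD4 T cell libraries stood furthest from lung in Nr1d1, the receptor that represses Bmal1. Nr1d1 averaged 5.69 ± 0.940 CPM in untreated CD4 T cell libraries and 90.2 ± 25.9 CPM in untreated lung (SD, n = 4 and 5), a log2 difference of −3.98 ± 0.24 (adjusted p = 1.70e-08). In all, 1 member was higher and 6 were lower than in lung, where 39.9% of all genes tested were higher and 44.0% lower (83.9% in all). The 6 were Nr1d1, Dbp (−2.25), Tef (−2.03), Per3 (−1.48), Clock (−1.39) and Nr1d2 (−0.98), and the higher one was Cry1 (0.82). Per1 also passed, at 0.26, without untreated lung replicate 3, and Cry2, at −0.42 and −0.47, without untreated lung replicate 1 or 2. Against the untreated monocyte libraries 7 members were lower in CD4 T cell libraries and none higher, where 40.8% of all genes were higher and 44.2% lower (85.0% in all). Among the 7, Nr1d1 differed by −3.97, Per1 by −1.64 and Clock by −1.51 on the log2 scale, and Per3, Cry1 and Dbp did not pass the test. The CD4 T cell libraries were counted in a table of their own, so material and count table cannot be told apart in these 2 comparisons. When libraries were scaled by total count, 1 member was higher and 5 were lower in CD4 T cell than in monocyte libraries: Per3 was called higher (0.33), and Per2 (−0.06) and Cry2 (−0.14) were not called. Genes then split 9448 higher to 6935 lower, against 7659 to 8294 with TMM.

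**Figure D1:**
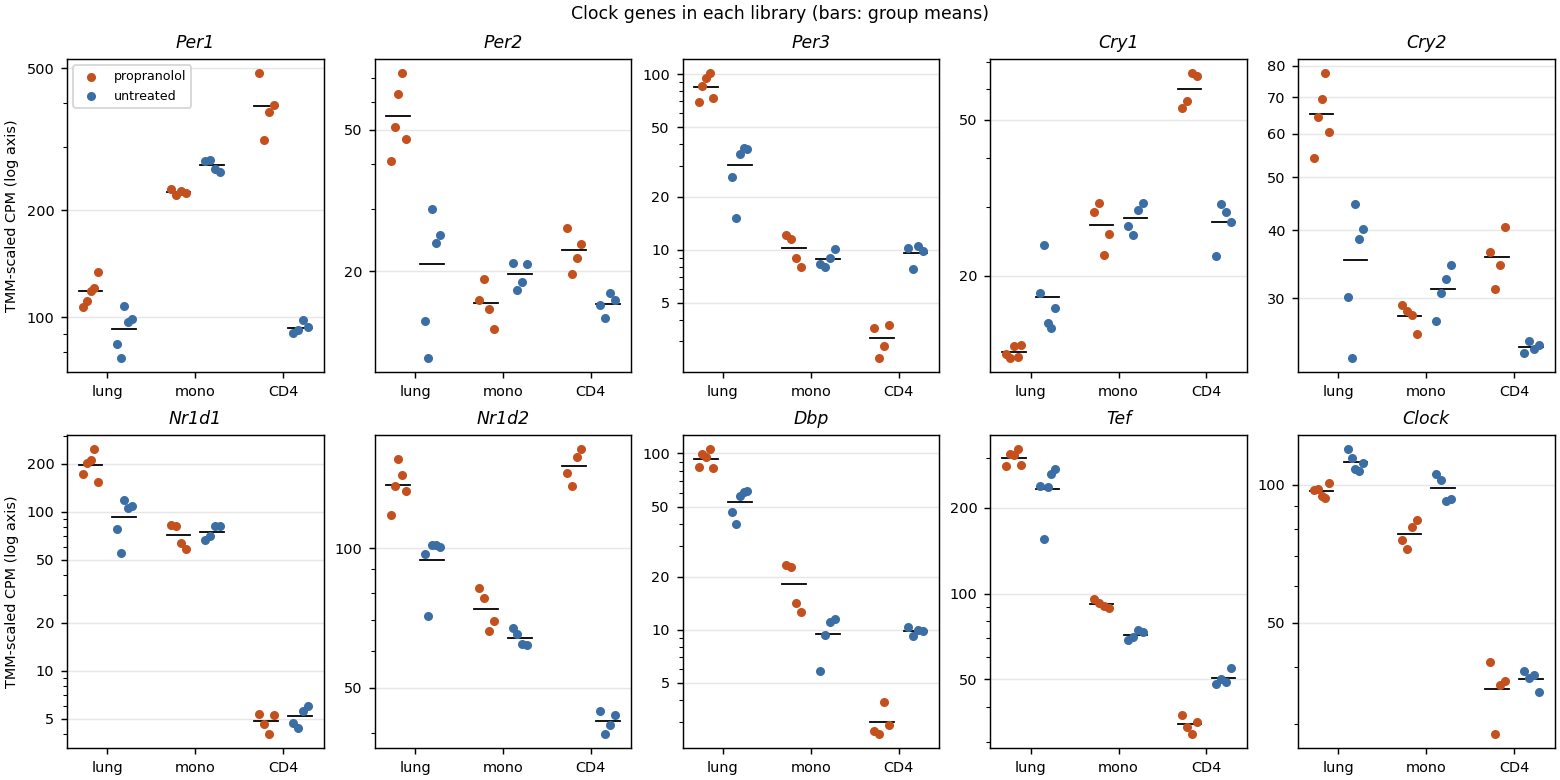
Each panel plots one clock gene, with its level in TMM-scaled CPM on a log axis against the 3 kinds of material; each point is one library, propranolol in orange to the left of untreated in blue, and bars are group means. Per1 and Nr1d2 stand highest in propranolol against untreated CD4 T cell libraries, while Dbp and Per3 are higher with propranolol in lung and lower in CD4 T cell libraries.

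With propranolol, whole lung held more RNA of the period genes, Cry2, the REV-ERB receptors and the D-box activators Dbp and Tef, and less of Cry1 and Clock. That is 8 members higher and 2 lower out of 10, although Per1, Nr1d2 and Tef changed sign when libraries were scaled on markers of resident lung cells. Over all genes tested in lung 70.8% were called, 35.5% higher and 35.3% lower. The members' median log2 change was 0.67, and that of all genes was 0.03. Changes are given for counts scaled by TMM, and CPM values of single libraries in the following comparisons carry the same scaling. The share of all genes whose groups did not overlap was not computed for any material, so non-overlap below describes the genes named only.

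The period genes Per3 and Per2, which encode repressors of CLOCK and BMAL1, moved most. Per3 had 69.8, 85.6, 95.1, 101 and 73.6 CPM in propranolol lungs, and 25.98, 15.2, 35.2, 37.8 and 37.8 CPM in untreated lungs, a 2.80-fold difference (log2 change 1.48 ± 0.22 SE, adjusted p = 0.000264). Per2 had 40.8, 51.0, 63.0, 72.1 and 47.0 CPM in propranolol lungs, and 14.5, 11.4, 29.96, 24.02 and 25.4 CPM in untreated lungs, a 2.6-fold difference (log2 change 1.38 ± 0.26, adjusted p = 0.000785). The groups did not overlap for either gene, and untreated replicates 1 and 2 were the lowest libraries of both. Per1 ran from 107 to 134 CPM in propranolol lungs and from 76.9 to 108 CPM in untreated lungs, which touched each other (log2 change 0.35 ± 0.10, adjusted p = 0.00830).

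Nr1d1 and Dbp, classic targets of CLOCK and BMAL1, followed. Nr1d1 had 173, 203, 210, 249 and 155 CPM in propranolol lungs, and 77.8, 55.0, 118, 105.5 and 109 CPM in untreated lungs (log2 change 1.09 ± 0.20, adjusted p = 0.000745). Dbp had 83.955, 99.2, 95.4, 106 and 82.5 CPM in propranolol lungs, and 46.7, 39.9, 57.7, 60.6 and 61.5 CPM in untreated lungs (log2 change 0.81 ± 0.13, adjusted p = 0.000303). Every propranolol lung lay above every untreated lung for both genes. Cry2, a repressor, had a log2 change of 0.88, and Nr1d2, the second REV-ERB receptor (0.54), and Tef, a relative of Dbp (0.36), rose by less, and for these also the groups did not overlap. Tef was the least certain, with an adjusted p of 0.0291, and of 0.0513 without untreated replicate 3.

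Cry1, the repressor that peaks late in the cycle, and Clock went the other way. Cry1 had 12.7, 12.3, 13.2, 12.4 and 13.3 CPM in propranolol lungs, and 18.1, 23.9, 15.1, 14.7 and 16.5 CPM in untreated lungs (log2 change −0.47 ± 0.13, adjusted p = 0.00733). Clock had 97.2, 98.1, 94.5, 93.7 and 101 CPM in propranolol lungs, and 120, 114, 108, 107 and 112 CPM in untreated lungs (log2 change −0.21 ± 0.05, adjusted p = 0.00471). Both genes were lower in every propranolol lung than in any untreated lung, Clock by a small margin. When libraries were scaled by total count, which set the median change of all genes at 0.21, the changes of Cry1 (−0.28) and Clock (−0.03) no longer passed the test.

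The lungs that held least tumour RNA held most RNA of Nr1d1. Among propranolol lungs, replicates 4, 3, 2, 1 and 5 had melanocyte sums of 1220, 2260, 4839, 9940 and 11700 CPM, and their Nr1d1 levels in that order were 249, 210, 203, 173 and 155 CPM. Untreated replicates 1 and 2 had the largest sums of their group (26640 and 23414 CPM) and the lowest levels of Per2, Per3, Cry2, Nr1d1 and Dbp. Other cell markers moved with the groups as well, without overlap. The 10 B cell genes summed to 214 to 313 CPM in propranolol lungs and 48.9 to 78.7 CPM in untreated lungs, the 10 endothelial genes to 2679 to 4316 and 1485 to 2443 CPM, and the 10 genes of dividing cells to 267 to 950 and 1067 to 1486 CPM, and the part of these in the changes of the clock genes was not tested. With the mean melanocyte level as a covariate 1 member (Per3) passed the test, where 2763 of 18639 genes tested did. The covariate itself did not overlap between the groups. With libraries scaled on markers of resident lung cells, the median change of all genes was −0.68. Of 18639 genes tested, 1986 were then called higher and 10646 lower. Per2 (0.70), Per3 (0.79) and Nr1d1 (0.39) were called higher there, and Cry1 (−1.18) and Clock (−0.91) lower. Per1 (−0.32), Nr1d2 (−0.17) and Tef (−0.34) had negative values that did not pass the test.

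**Figure D2:**
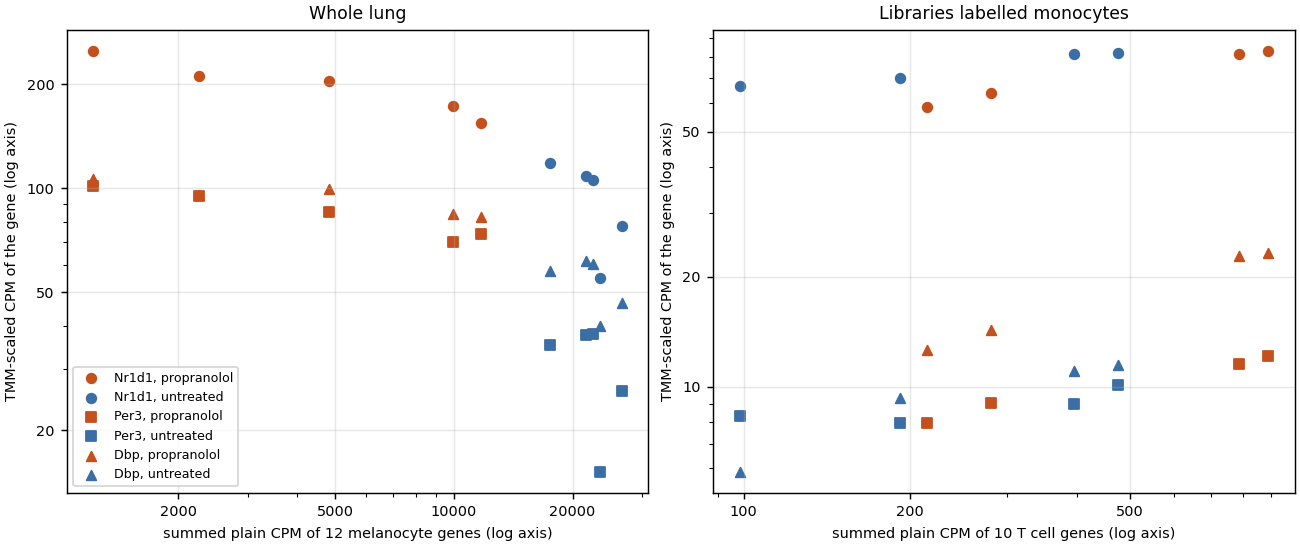
The left panel plots the TMM-scaled CPM of Nr1d1, Per3 and Dbp in each lung library against the summed CPM of 12 melanocyte genes, and the right panel plots the same 3 genes in each library labelled monocytes against the summed CPM of 10 T cell genes, all on log axes, with propranolol in orange and untreated in blue. The 5 propranolol lungs lie at 1220 to 11700 CPM of melanocyte RNA, to the left of the 5 untreated lungs and above them in each gene. In the right panel Dbp and Nr1d1 lie higher where the T cell sum is higher, within each group.

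In the libraries labelled monocytes 5 of the 10 members changed. Per1 and Clock were lower with propranolol, Nr1d2, Dbp and Tef were higher, and the other 5 members did not pass the test. That is 3 higher and 2 lower, where 30.5% of all genes tested were called, 14.3% higher and 16.1% lower. The median log2 change was −0.06 over the members and 0.02 over all genes. Sums of other cell markers moved beside these changes without overlap. The 10 B cell genes summed to 472 to 528 CPM in propranolol and 173 to 276 CPM in untreated libraries, and the 12 melanocyte genes to 5993 to 8733 and 4716 to 5687 CPM. The 10 endothelial genes summed to 4563 to 4583 CPM in propranolol and 6096 to 6141 CPM in untreated libraries, and the 10 fibroblast genes to 1963 to 2007 and 2942 to 3511 CPM. The part of these cells in the changes of the clock genes was not tested.

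Tef and Dbp, the D-box activators, were higher in every propranolol library than in any untreated one. Tef had 95.7, 92.4, 90.5 and 88.7 CPM in propranolol libraries, and 68.8, 70.6, 74.4 and 73.2 CPM in untreated libraries, a 1.28-fold difference (log2 change 0.36 ± 0.04 SE, adjusted p = 0.000102). Dbp had 23.3, 22.9, 14.3 and 12.6 CPM in propranolol libraries, and 5.86, 9.30, 11.0 and 11.5 CPM in untreated libraries, a 1.93-fold difference (log2 change 0.95 ± 0.24, adjusted p = 0.0122). The summed CPM of 10 T cell genes followed the same order as Dbp within each group, but not as Tef in the untreated group. It was 888, 785, 280 and 214 in propranolol and 98.5, 192, 395 and 476 in untreated replicates 1 to 4. Nr1d1 and Cry2 took the same order in both groups, as did the neutrophil, B cell and dividing-cell sums, among others. The order was thus not particular to Dbp or to T cell genes. With the T cell level as a covariate 9 of the 10 members were called, 3 higher and 6 lower. The count of all genes called stayed within 1.5 times that of the fit without it, in which 30.5% were called.

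Per1 and Clock were lower. Per1 had 230, 221, 225 and 224 CPM in propranolol libraries, and 275, 277, 261 and 256 CPM in untreated libraries (log2 change −0.25 ± 0.04, adjusted p = 0.000565). Clock had 75.8, 72.4, 81.0 and 83.7 CPM in propranolol libraries, and 105, 102, 92.1 and 93.1 CPM in untreated libraries (log2 change −0.33 ± 0.06, adjusted p = 0.00200). Neither gene overlapped between the groups. Nr1d2 had log2 change 0.21 ± 0.07 and an adjusted p of 0.0375, which lay between 0.0721 and 0.0927 without untreated replicate 2, 3 or 4 or propranolol replicate 1 or 2.

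For Per2 (−0.27), Per3 (0.20), Cry1 (−0.06), Cry2 (−0.17) and Nr1d1 (−0.07) the adjusted p ran from 0.0670 to 0.700, and the groups overlapped. Per2 passed without propranolol replicate 2 (adjusted p = 0.0201) and Cry2 without untreated replicate 1 (adjusted p = 0.0234). Nr1d1 had 82.9, 81.6, 63.9 and 58.2 CPM in propranolol libraries, and 66.7, 69.97, 81.4 and 81.8 CPM in untreated libraries, so replicates of one group lay as far apart as the groups. Replicates 1 and 2, and 3 and 4, of each group resembled each other more than other pairs of the same group did, with a chi-square per degree of freedom of 3.52 to 5.24 against 12.2 to 35.6. With each such pair summed to 1 library, 1 member (Tef) was called, where 1377 of 20638 genes tested were called. Whether the member count differs from that of all genes was not tested.

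In the CD4 T cell libraries propranolol went with large changes in both directions. The 5 members Per1, Per2, Cry1, Cry2 and Nr1d2 rose and the 3 members Per3, Dbp and Tef fell, out of 10. Over all genes tested in CD4 T cell libraries 60.0% were called, 30.1% higher and 29.9% lower. The median log2 change was 0.22 over the members and −0.04 over all genes.

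Per1, the period gene with both an E-box and a cAMP response core in the windows printed above, rose most. It had 483, 314, 376 and 394 CPM in propranolol libraries, and 90.5, 92.1, 98.1 and 93.8 CPM in untreated libraries, a 4.19-fold difference (log2 change 2.07 ± 0.11 SE, adjusted p = 2.36e-08). The propranolol levels lay above the 221 to 277 CPM of the libraries labelled monocytes, although those values were scaled in another fit. In CPM without TMM scaling the closest libraries were propranolol CD4 T cell replicate 2 at 272 and untreated monocyte replicate 2 at 269. The part of monocyte RNA in this rise was not tested. Nr1d2 had 145, 136, 157 and 164 CPM in propranolol libraries, and 44.5, 39.8, 41.5 and 43.7 CPM in untreated libraries, a 3.55-fold difference (log2 change 1.83 ± 0.07, adjusted p = 1.91e-09). Its paralog Nr1d1 had 5.32, 4.62, 4.02 and 5.23 CPM in propranolol libraries, and 4.71, 4.34, 5.62 and 6.04 CPM in untreated libraries (log2 change −0.11 ± 0.17, adjusted p = 0.598). The REV-ERB receptors thus differed, Nr1d2 without overlap between the groups and Nr1d1 with overlap.

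The cryptochromes rose together. Cry1 had 53.6, 55.7, 65.7 and 64.5 CPM in propranolol libraries, and 22.5, 30.5, 29.1 and 27.4 CPM in untreated libraries (log2 change 1.13 ± 0.11, adjusted p = 3.52e-06). Cry2 ran from 31.1 to 40.5 CPM in propranolol libraries and from 23.8 to 25.1 CPM in untreated libraries (log2 change 0.55 ± 0.09, adjusted p = 0.000298). Per2 ran from 19.7 to 26.5 CPM in propranolol libraries and from 14.8 to 17.4 CPM in untreated libraries (log2 change 0.50 ± 0.11, adjusted p = 0.00192). No group overlapped in these 3 genes, but the share of all genes without overlap was not computed. The median change of all genes was −0.42 when libraries were scaled by total count, and there Per2 (0.12) and Cry2 (0.16) were not called, while Nr1d1 (−0.50) and Clock (−0.46) were called lower.

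Dbp, Per3 and Tef fell. Dbp had 2.69, 2.58, 3.92 and 2.88 CPM in propranolol libraries, and 10.4, 9.24, 10.03 and 9.92 CPM in untreated libraries, 3.28-fold lower (log2 change −1.71 ± 0.16, adjusted p = 3.24e-06). Per3, whose promoter window holds D-boxes, had 3.57, 2.41, 2.83 and 3.73 CPM in propranolol libraries, and 10.3, 7.81, 10.6 and 9.78 CPM in untreated libraries, 3.04-fold lower (log2 change −1.61 ± 0.18, adjusted p = 1.21e-05). Tef ran from 32.1 to 37.4 CPM in propranolol libraries and from 48.1 to 54.9 CPM in untreated libraries (log2 change −0.54 ± 0.08, adjusted p = 9.91e-05). Every propranolol library lay below every untreated library for all 3. Clock did not pass the test (log2 change −0.07 ± 0.11, adjusted p = 0.592), and its groups overlapped.

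Markers of other cells moved with these changes. The 10 monocyte genes summed to 1336 to 1483 CPM in propranolol and 1034 to 1181 CPM in untreated CD4 T cell libraries, all 10 being above 0 in each group, and Cd14 had 61.4 to 73.7 CPM against 0.618 to 1.93 CPM. All 8 neutrophil genes were above 0 and summed to 508 to 805 CPM against 152 to 205 CPM, and the 10 genes of dividing cells to 1019 to 1586 CPM against 1921 to 2016 CPM. The 10 B cell genes summed to 547 to 677 CPM in propranolol and 218 to 270 CPM in untreated libraries, and the 10 endothelial genes to 104 to 118 and 175 to 183 CPM. The sums of the T cell, melanocyte and alveolar type 2 genes given above did not overlap either. The part of these cells, monocytes included, in the changes of the clock genes was not tested. With the monocyte level as a covariate, edgeR called none of the 10 members (1 at an unadjusted p under 0.05) and 29 of 16550 genes. That level did not overlap between the groups, so the fit cannot separate it from propranolol.

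**Figure D3:**
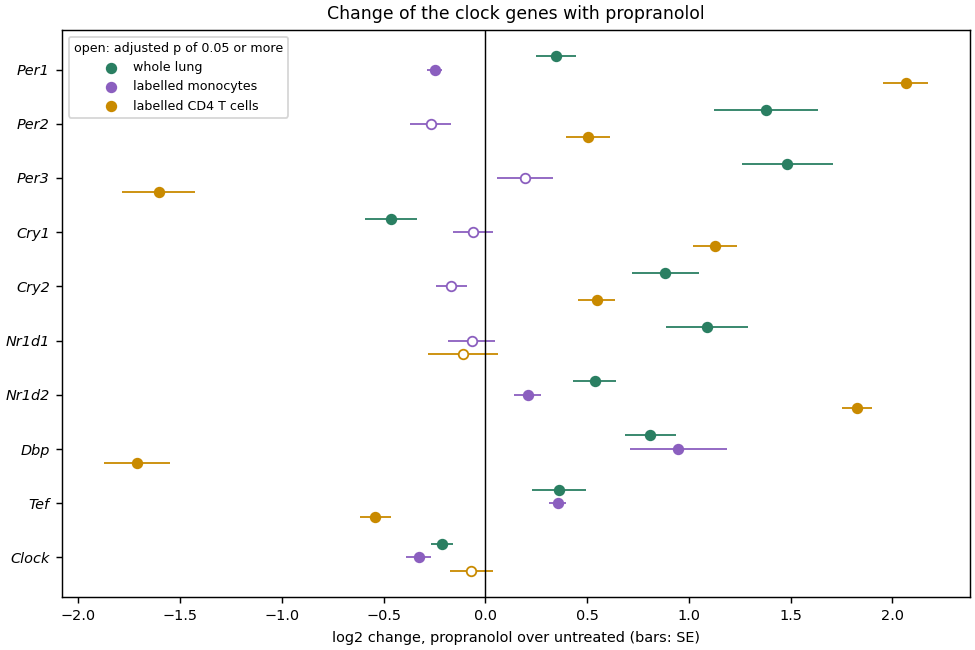
The log2 change of each clock gene, propranolol over untreated, is plotted along the horizontal axis with its SE for whole lung, the libraries labelled monocytes and the CD4 T cell libraries; filled points passed an adjusted p of 0.05. Dbp and Per3 lie right of 0 in lung and left of 0 in CD4 T cells, and Cry1 lies on the opposite sides.

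Most members responded differently in lung and in the isolated cells. In 1 fit of CD4 T cell and lung libraries the change in CD4 T cell libraries exceeded that in lung for Per1 (by 1.55 ± 0.17 on the log2 scale), Cry1 (1.42 ± 0.18) and Nr1d2 (1.12 ± 0.16). It was below that in lung for Per3 (−3.26 ± 0.33), Dbp (−2.70 ± 0.22), Nr1d1 (−1.38 ± 0.30), Tef (−1.08 ± 0.18) and Per2 (−1.05 ± 0.34). These 3 and 5 members of 10 passed the test of the difference, where 56.2% of all genes tested did, 24.0% higher and 32.2% lower. Cry2 (−0.51, adjusted p = 0.0672) and Clock (−0.03, adjusted p = 0.877) did not pass, but Cry2 did without untreated lung replicate 3 (−0.61) or propranolol lung replicate 1 (−0.57). With lung libraries scaled on resident markers, Per2 (−0.20), Nr1d1 (−0.50) and Tef (−0.20) no longer passed, while Clock passed at 0.84. When libraries were scaled by total count all 10 members passed, 3 higher and 7 lower, with Clock at −0.43 and Cry2 at −0.90, so the direction of Clock rested on the scaling. Genes split 8383 higher to 3047 lower with resident scaling and 3034 to 9133 by total count, against 5001 to 6711 with TMM.

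Between the monocyte and lung libraries 7 members differed in their change with TMM scaling, all with the lower change in the monocyte libraries, where 57.4% of all genes tested differed, 25.2% higher and 32.3% lower. They were Per2 (−1.77 ± 0.32), Per3 (−1.42 ± 0.30), Nr1d1 (−1.28 ± 0.27), Cry2 (−1.17 ± 0.21), Per1 (−0.71 ± 0.12), Nr1d2 (−0.45 ± 0.14) and Clock (−0.23 ± 0.08). Dbp, with a difference of 0.01 ± 0.28 (adjusted p = 0.972), Tef (−0.13) and Cry1 (0.29) did not pass. Clock lost its call, at −0.037 to −0.19, without untreated lung replicate 1, 3, 4 or 5, propranolol lung replicate 1, 4 or 5, or replicate 1 or 2 of either monocyte group. Nr1d2 lost it, at −0.26 to −0.30, without untreated lung replicate 1, propranolol lung replicate 4 or untreated monocyte replicate 1 or 2, and Cry1 gained it, at 0.43 to 0.48, without untreated lung replicate 1, 3, 4 or 5 or propranolol lung replicate 5. With lung libraries scaled on resident markers 4 members were called higher and 1 lower: Cry1 (1.11), Dbp (0.83), Tef (0.68) and Clock (0.58), which was called lower with TMM, against Per2 (−0.98). Per1 (0.065) and Nr1d2 (0.37) also changed sign there, and genes split 9759 higher to 2090 lower, against 5115 to 6558 with TMM.

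The ratio of each member to Clock within a library does not depend on how libraries are scaled to each other, but it depends on Clock. With TMM scaling Clock itself was called lower with propranolol in lung (−0.21) and in the monocyte libraries (−0.33). Ratio differences there therefore lie above the members' own changes. By a two-sided exact permutation test over libraries, 20 of 27 ratios to Clock passed an adjusted p of 0.05, 16 higher and 4 lower. The share of all genes whose ratio to Clock would pass was not computed, so this count describes the members only. In lung all but Cry1 had higher ratios with propranolol. The mean log2 ratio of Nr1d1 to Clock was 1.01 ± 0.303 in propranolol lungs and −0.321 ± 0.501 in untreated lungs (SD, n = 5 each, exact p = 0.00794, the smallest p that 5 against 5 libraries allow, adjusted p = 0.0268). In the monocyte libraries Nr1d2, Dbp and Tef had higher ratios. In CD4 T cell libraries Per1, Per2, Cry1, Cry2 and Nr1d2 had higher and Per3, Dbp and Tef lower ratios, each at the smallest p that 4 against 4 libraries allow (exact p = 0.0286, adjusted p = 0.0386). The ratio of Dbp to Clock was −3.57 ± 0.304 in propranolol and −1.93 ± 0.0818 in untreated CD4 T cell libraries on the log2 scale (SD, n = 4 each).

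Beside the members 24 other clock genes were listed. In lung 4 of the 24 were higher and 11 lower, where 35.5% of all genes were higher and 35.3% lower. In the monocyte libraries 1 was higher and 5 lower, against 14.3% and 16.1% of all genes, and in the CD4 T cell libraries 14 were higher and 4 lower, against 30.1% and 29.9%, with 1 gene not tested in the monocyte and 2 in the CD4 T cell libraries. Whether these counts differ from those of all genes or of the members was not tested. Their median log2 change was −0.25 in lung, 0.01 in the monocyte and 0.86 in the CD4 T cell libraries. Bmal1, the partner of Clock, had a log2 change of −0.25 in lung (adjusted p = 0.147), −0.34 in the monocyte libraries (adjusted p = 0.0233) and 0.84 in CD4 T cell libraries (adjusted p = 1.06e-05). Its levels had medians of 44.1 CPM in propranolol and 25.9 CPM in untreated CD4 T cell libraries. Npas2, a relative of Clock, was called in the monocyte libraries alone (−0.46).

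Repressors of clock transcription outside the members gave the largest differences. Bhlhe40, which binds E-boxes as a repressor, had 448 to 597 CPM in propranolol and 32.5 to 43.4 CPM in untreated CD4 T cell libraries, a 12.8-fold difference (log2 change 3.68, adjusted p = 2.68e-10). Nfil3, the repressor at D-boxes where DBP and TEF activate, had 143 to 148 CPM in propranolol and 9.12 to 13.0 CPM in untreated CD4 T cell libraries, a 12.6-fold difference (log2 change 3.65, adjusted p = 9.92e-11). In these libraries Dbp and Tef fell, while Hlf, the third D-box activator, rose (1.61). A link of these changes to Nfil3 was not tested. In lung Bhlhe40 (−1.0), Nfil3 (−1.39) and Bhlhe41 (−1.66) fell, and Bhlhe41 rose in CD4 T cell libraries (1.32). The monocyte libraries, in which none of these 3 passed the test, held Bhlhe40 at 377 to 407 CPM with propranolol and 349 to 407 CPM without, and Nfil3 at 99.3 to 126 and 97.6 to 117 CPM.

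Ciart, a repressor of CLOCK and BMAL1, rose in lung (1.48) and in CD4 T cell libraries (2.43) and fell in the monocyte libraries (−1.52). Hlf, the third D-box activator with Dbp and Tef, rose in lung (0.91) and in CD4 T cell libraries (1.61). Cipc, which binds CLOCK, fell in lung (−0.52) and rose in CD4 T cell libraries (0.50). Among the ROR receptors, which activate where REV-ERB represses, Rora rose in CD4 T cell libraries (2.24) and fell slightly in the monocyte libraries (−0.17). Usp2, a deubiquitinase with a daily rhythm, rose in CD4 T cell libraries (2.82).

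Kinases and ubiquitin ligases that set the life of PER and CRY proteins differed between lung and CD4 T cells. The casein kinase genes Csnk1d and Csnk1a1 fell in lung (−0.37 and −0.28) and rose in CD4 T cell libraries (0.84 and 0.87), and Csnk1e rose in CD4 T cell libraries (0.99) and fell in the monocyte libraries (−0.25). Fbxl21, a ligase subunit that binds CRY proteins, rose in lung (1.36). Fbxw11 fell in lung (−0.57) and rose in CD4 T cell libraries (1.31), and Btrc, its paralog, fell in CD4 T cell libraries (−0.70). Gsk3b fell in lung (−0.46). Timeless and Wee1, which also act in the cell cycle, fell in lung (−0.26 and −0.81) and in CD4 T cell libraries (−1.58 and −0.66), and Nono fell in lung (−0.82) and rose in the monocyte libraries (0.14). Timeless and Wee1 moved beside the sum of dividing-cell genes, which was lower in propranolol than in untreated lung (267 to 950 against 1067 to 1486 CPM) as in CD4 T cells. Its part in their change was not tested.

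**Figure D4:**
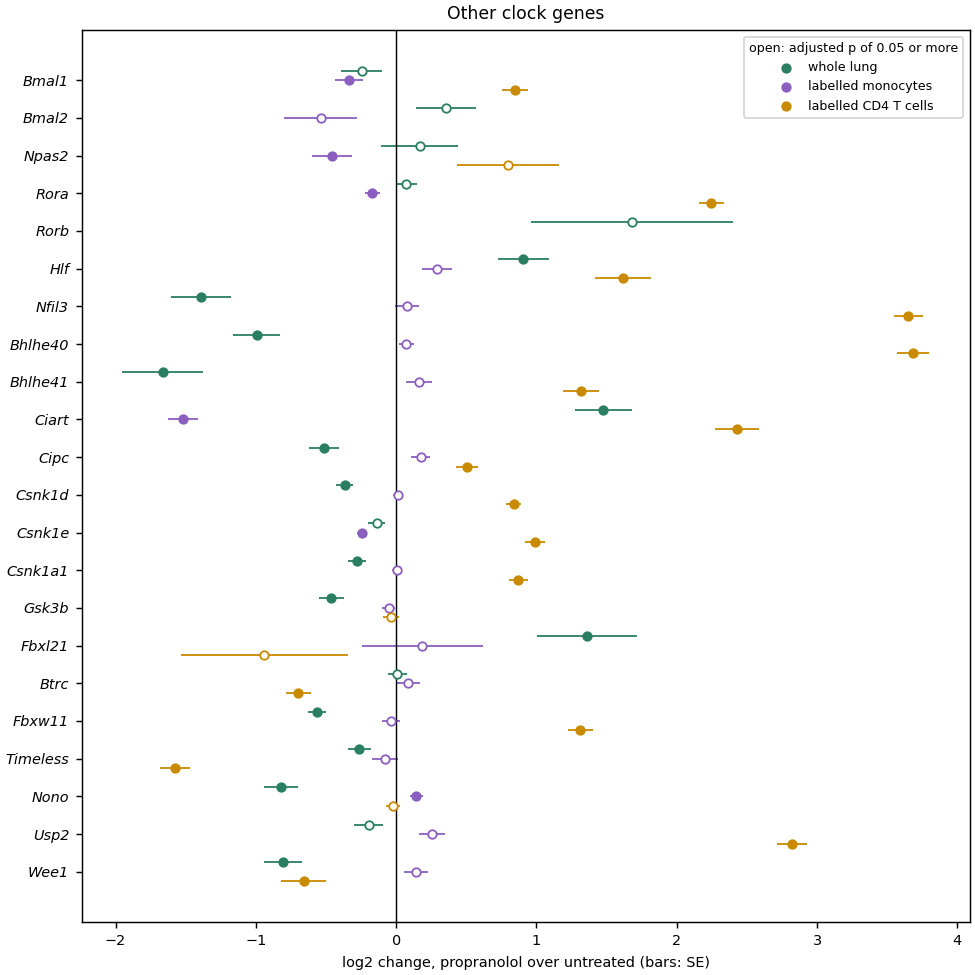
The log2 change of 22 further clock genes, propranolol over untreated, is plotted with its SE for the 3 kinds of material; filled points passed an adjusted p of 0.05 and genes not tested have no point. Bhlhe40 and Nfil3 stand at 3.68 and 3.65 in CD4 T cell libraries and at −1.0 and −1.39 in lung.

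Some counts may hold reads of a neighbour, because no source says if reads were counted by strand. By GENCODE M21 (GRCm38), exons of Dbp share 539 bases (18.0% of its exon length) with Sphk2 on the opposite strand, and exons of Nr1d1 share 263 bases (8.5%) with Thra. Sphk2 had log2 changes of 0.00, −0.02 and 0.03 in lung, monocyte and CD4 T cell libraries and passed none of the 3 tests, whereas Dbp passed all 3. Thra had 0.58, −0.29 and −2.23, all called, whereas Nr1d1 had 1.09, −0.07 and −0.11.

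Genes most like Dbp and Nr1d1 in all 3 changes were sought among 11305 genes that averaged 1 CPM or more in each material, by the largest of the 3 absolute differences in log2 change. The 5 nearest to Dbp were Carns1 (largest difference 0.18), Fam78a (0.27), Bcl11a (0.34), Pcsk4 (0.36) and Zc3h6 (0.36). Carns1 had log2 changes of 0.88 in lung, 0.76 in the monocyte and −1.71 in the CD4 T cell libraries, against 0.81, 0.95 and −1.71 for Dbp. The 5 nearest to Nr1d1 were Prdm1 (0.08), Slc23a1 (0.08), Sptb (0.11), Zfyve28 (0.11) and Dpp4 (0.12). Likeness over 3 values is a description, and nearest genes were chosen for it.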

How the data were processed

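Poly(A) RNA libraries, made with an NEBNext kit and sequenced on a NovaSeq instrument per the labels, were deposited by the authors as whole-number counts per Ensembl gene in 2 tables, not normalized. The submitters' processing notes name STAR 2.7.9, featureCounts and Subread 2.0.3 with build GRCm39. Symbols matched 52083 of 55416 genes (94.0%). All 26 columns matched sample titles.

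In each of 8 comparisons the groups compared entered 1 fit in edgeR 4.0.16 (R 4.3.3): filterByExpr (minimum count 10), TMM scaling, quasi-likelihood test, Benjamini-Hochberg adjustment over all genes tested, threshold 0.05. SE was the log2 change over the root of F. Differences between materials were interaction contrasts. Ratios to Clock used a pseudocount of 0.5 and scipy 1.17.1, with adjustment over 27 tests. Levels per kilobase used exon lengths of GENCODE M21, another build than that of the counts. The tests were checked on simulated counts.

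The members, the gene lists, the tests and the naming rule (all members, other clock genes called in any propranolol comparison with Bmal1 always, and the 5 genes nearest to Dbp and to Nr1d1) were chosen with earlier results of these data known. Some clock genes that the rule named are counted but not reported by name here. Alternatives were size factors and the test of DESeq2 1.42.0, limma-voom (limma 3.58.1), no filter, a mean of at least 5 CPM, a replicate block, each library left out, joint fits, marker covariates and scaling on resident markers. Total-count scaling, summed monocyte libraries and resident scaling in the interactions were chosen after seeing the data. No pair of replicates agreed within counting error (genes averaging 50 counts or more).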

Additional observations from a re-analysis of the deposited data

Results flagged for a closer look

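Of 60 groups of libraries checked, 1 held a library far from its own group, where about 1 in 20 groups would be flagged by chance. Untreated lung replicate 2 had 71.5 CPM of Nr1d2, against 97.3 to 102 CPM in the other untreated lungs, and its gap took up 0.858 of the range.

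The change with propranolol differed between materials for 15 of 20 member tests (edgeR interaction, Benjamini-Hochberg over all genes). Of all genes tested, 56.2% passed between CD4 T cell libraries and lung, and 57.4% between monocyte libraries and lung. Against lung, the change in CD4 T cell libraries was higher on the log2 scale for Per1 (1.55), Cry1 (1.42) and Nr1d2 (1.12), and lower for Per2 (−1.05), Per3 (−3.26), Nr1d1 (−1.38), Dbp (−2.70) and Tef (−1.08). Against lung, the change in the libraries labelled monocytes was lower for Per1 (−0.71), Per2 (−1.77), Per3 (−1.42), Cry2 (−1.17), Nr1d1 (−1.28), Nr1d2 (−0.45) and Clock (−0.23). Of these, Per1, Nr1d2 and Clock changed sign with lung libraries scaled on resident markers, and Clock was then called higher.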

How the results depend on the processing

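The counts of called genes and members stayed within 1.5 times under the alternatives run, with these exceptions. In lung the melanocyte covariate left 2763 genes and 1 member, and resident scaling 5 members. In the monocyte libraries the replicate block left 3544 genes (Dbp lost its call, adjusted p = 0.0821), summed libraries 1377 genes and 1 member, the joint fit 2069 genes and 2 members, and the T cell covariate gave 9 members. In the CD4 T cell libraries the monocyte covariate left 29 genes and 0 members (edgeR; 1 member at an unadjusted p under 0.05). A mean of at least 5 CPM, which tests fewer genes, left 10631 genes between untreated CD4 T cells and lung. Ratios to Clock passing the test ran from 9 to 20 with 1 library left out, 9 without any 1 CD4 T cell library, where 4 against 3 cannot reach 0.05. Leaving out 1 library otherwise gave 9 to 10 members in lung, 4 to 6 in the monocyte and 8 in the CD4 T cell libraries, 5 to 7 and 8 to 9 in the interactions, and 6, 7 to 8 and 7 in the level comparisons. Under total-count scaling genes split 8268 higher to 4770 lower in lung (6614 to 6575 with TMM), 3644 to 2424 in monocyte (2614 to 2939) and 2886 to 8064 in CD4 T cell libraries (4982 to 4947), and under resident scaling 1986 to 10646 in lung. Replicate numbers did not pair the libraries: deviations of same-numbered propranolol and untreated libraries correlated at −0.124 to 0.623 in lung, −0.601 to −0.373 in monocyte and −0.068 to 0.061 in CD4 T cell libraries.

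Single values changed sign as follows, and the cause was not tested. Resident scaling gave −0.32 for Per1, −0.17 for Nr1d2 and −0.34 for Tef in lung. It gave monocyte minus lung differences of 0.065 for Per1, 0.37 for Nr1d2, 0.68 for Tef and 0.58 for Clock, and CD4 minus lung differences of 0.35 for Cry2 and 0.84 for Clock. Marker covariates gave −0.018 for Per3 in monocyte and −0.75 for Cry1 in CD4 T cell libraries. For Dbp the monocyte minus lung difference was −0.024 with limma-voom, −0.095 at a mean of at least 5 CPM and −0.0086 with the replicate block, and for Tef it was 0.081 unfiltered and 0.064 with summed libraries. For Clock the CD4 minus lung difference was 0.017 with DESeq2 size factors, 0.021 with its test and 0.20 unfiltered. Untreated levels scaled by total count gave −0.044 for Per2, −0.11 for Cry2 and −0.12 for Clock (monocyte against lung) and 0.33 for Per3, 0.18 for Cry1 and 0.28 for Dbp (CD4 against monocyte). The replicate block gave 0.038 for Nr1d1 (monocyte against lung), and a mean of at least 5 CPM 0.056 for Per3 and 0.0094 for Dbp (CD4 against monocyte). With Csnk1d as denominator the ratio differences were negative in monocyte libraries for Per1 (−0.26), Per2 (−0.28), Cry1 (−0.075), Cry2 (−0.17) and Nr1d1 (−0.087) and in CD4 T cell libraries for Per2 (−0.34) and Cry2 (−0.30).

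With 1 library left out, values that were not called crossed 0. With propranolol, Cry1 ran from −0.13 to 0.018 and Nr1d1 from −0.15 to 0.021 in monocyte libraries, and Clock from −0.14 to 0.036 in CD4 T cell libraries. Monocyte minus lung differences ran from −0.11 to 0.23 for Dbp and −0.13 to 0.053 for Tef, and the CD4 minus lung difference from −0.12 to 0.066 for Clock. Untreated levels of monocyte libraries against lung ran from −0.024 to 0.31 for Per2, −0.060 to 0.17 for Cry2 and −0.22 to 0.043 for Nr1d1. Those of CD4 against monocyte libraries ran from −0.13 to 0.080 for Per3 and −0.25 to 0.039 for Dbp. Ratios to Clock ran from −0.060 to 0.17 for Per2 in monocyte and −0.11 to 0.085 for Nr1d1 in CD4 T cell libraries. The lowest count of any member in any library was 58, of Per3 in a CD4 T cell library, so depth limited Per3 and Dbp there most.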
